A study of Mus musculus with 16 samples.

Results

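The 8 genes described here decide which fast transmitter a neuron can load into vesicles, make or take up again: the vesicular glutamate transporters Slc17a6, Slc17a7 and Slc17a8, the GABA-synthesizing enzymes Gad1 and Gad2, the vesicular GABA and glycine transporter Slc32a1, and the plasma membrane glycine transporters Slc6a5 and Slc6a9. They were chosen by gene symbol for these roles, and all 8 were found among the 46320 genes of the count table, of which 35571 had a total count above 0. RNA was sequenced from 16 libraries of mouse cultures labelled as motoneurons, with 4 libraries in each of 4 groups, namely the somatodendritic and the axonal compartment of wildtype (+/+) and Hnrnpr knockout (-/-) cultures. The cells came from lumbar spinal cords of embryonic day 13 embryos, were enriched by panning with an antibody against p75NTR (encoded by Ngfr), and grew in microfluidic chambers that let axons enter a compartment of their own. All groups received CNTF at 5 ng/ml in both compartments and BDNF at 20 ng/ml in the axonal compartment, and the knockout lacks the first exons of Hnrnpr after a CRISPR/Cas9 deletion. Panning enriches motoneurons and does not purify them, and each library holds RNA of many cells, so that fewer cells of a type and less RNA per cell cannot be told apart in any value given here.

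Spinal motoneurons release acetylcholine, which is made by choline acetyltransferase (Chat) and loaded by the vesicular acetylcholine transporter (Slc18a3). Spinal excitatory interneurons load glutamate into vesicles through Slc17a6, and inhibitory interneurons make GABA from glutamate with Gad1 and Gad2, take up glycine through Slc6a5, and load both transmitters with the single transporter Slc32a1. The other glycine transporter, Slc6a9, is known mainly from astrocytes, where it clears glycine from the extracellular space. Slc17a7 is the main vesicular glutamate transporter of the cerebral cortex, and Slc17a8 is restricted to small populations of neurons, some of which also release another transmitter.

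CPM (counts scaled to a common library size with TMM factors) are given for each library, and CPM per kilobase of exon where genes are compared with each other. Total counts ran from 22024923 to 34864151 per library, and a library without a count on a gene allows up to 3 counts, which corresponds to 0.0810 to 0.141 CPM and covers counting error only. The knockout was clear in the libraries labelled -/-: Hnrnpr was at 178 to 241 CPM in the +/+ and 0.544 to 1.16 CPM in the -/- somatodendritic libraries, and at 120 to 422 CPM against 0.596 to 1.10 CPM in axons. The labels call the cells primary motoneurons, but their defining markers were low. Chat had 14 to 31 counts in the somatodendritic and 0 to 8 in the axonal libraries, with 0 in 5 of the 8 axonal ones. The motoneuron transcription factor Mnx1 had 0 counts in 15 of 16 libraries and 2 counts in -/- axonal replicate 3. In the somatodendritic libraries Slc18a3 lay between 3.89 and 11.5 CPM, the choline transporter Slc5a7 between 2.72 and 7.74 CPM, the transcription factor Isl1 between 3.89 and 8.03 CPM, and the panning antigen Ngfr between 3.25 and 7.78 CPM.

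In the somatodendritic compartment, 6 of the 8 genes, which handle glutamate, GABA or glycine, lay above the cholinergic genes Slc18a3 and Chat, while Slc17a8 and Slc17a7 lay below both. Per kilobase of exon, the mean over the 8 somatodendritic libraries was 95.8 CPM per kb for Slc17a6, 57.8 for Gad1, 30.0 for Slc6a5, 24.8 for Slc6a9, 17.8 for Gad2 and 11.4 for Slc32a1. Slc18a3 followed with 3.02 CPM per kb, Chat with 0.350, Slc17a8 with 0.257 and Slc17a7 with 0.0570. The order from Slc17a6 to Gad1, from Gad1 to Slc6a5, from Slc6a9 to Gad2, from Gad2 to Slc32a1 and from Slc32a1 to Slc18a3 held within all 8 libraries. Only Slc17a6 and Gad1, Slc32a1 and Slc18a3, Slc18a3 and Chat, and Slc17a8 and Slc17a7 were neighbours whose ranges over the libraries did not touch. Slc6a5 stood above Slc6a9 in 6 of 8 libraries, and Chat above Slc17a8 in 6 of 8, so that these neighbours were not separated beyond their spread. Among all genes that passed the filter on low counts, 94.4% lay below Gad1 in mean somatodendritic level per kilobase, and 71.8% below Slc32a1.

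**Figure D1:**
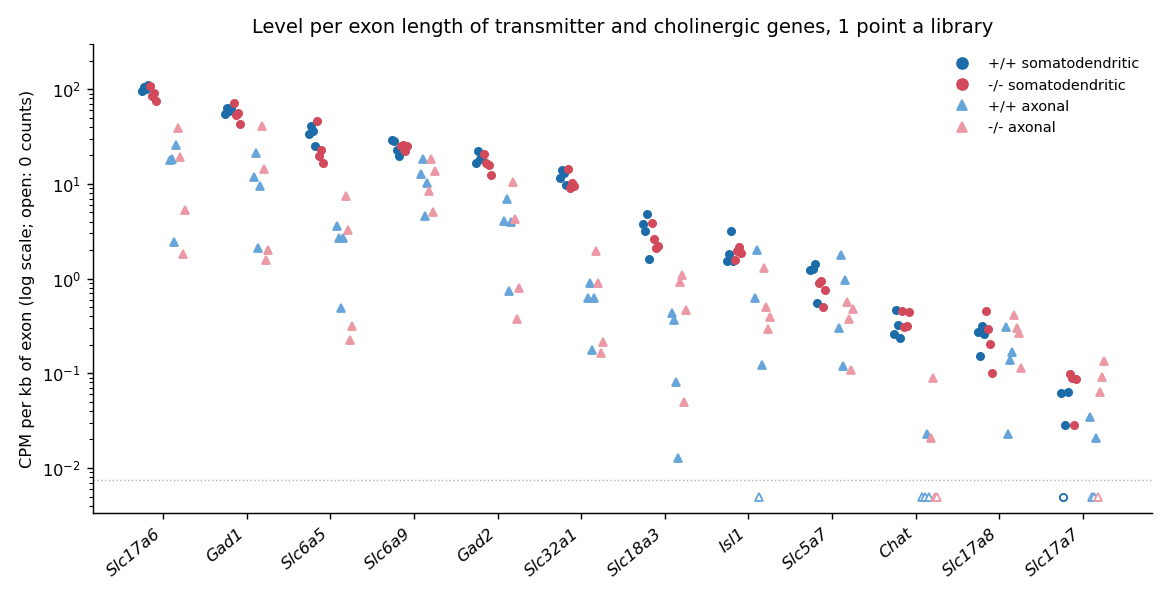
CPM per kb of exon on a log scale for the 8 transmitter genes and 4 cholinergic or motoneuron genes, with 1 point for each somatodendritic (circles) and axonal (triangles) library of +/+ (blue) and -/- (red) cultures, and open points for 0 counts. In the somatodendritic libraries Slc17a6, Gad1, Slc6a5, Slc6a9, Gad2 and Slc32a1 all lie above Slc18a3, and Chat lies near Slc17a8.

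Expressed as ratios within a library, which need no scaling between libraries, Slc17a6 was 20.8 to 67.4 times Slc18a3 per exon length in the somatodendritic compartment (median 32.8 over 8 libraries), and Slc32a1 was 2.73 to 6.05 times Slc18a3 (median 3.95). Between the inhibitory genes, Slc6a5 exceeded Slc32a1 by 1.76 to 3.22 times in the same libraries, and Gad2 stood at 0.279 to 0.355 of Gad1. The reads cannot tell strands apart with the library kit used, and the long noncoding RNA Gm14204, on the strand opposite Slc32a1, holds 51.8% as many counts as Slc32a1 itself over all libraries, so the split between this pair is uncertain. Gene pairs of that kind were smaller for Slc6a9 (Ccdc24, 6.42%), Slc17a6 (Gm33136, 1.17%) and Gad1 (Gad1os, 0.202%). Slc18a3 lies within the span of Chat on the same strand, and the 2 genes are therefore not independent of how reads were assigned.

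Slc17a6 (GRCm39, chr7:51271578-51320874, plus strand) was the highest of the 8 genes in every somatodendritic library. It had 426, 473, 447 and 491 CPM in +/+ replicates 1 to 4 and 485, 381, 405 and 333 CPM in -/- replicates 1 to 4. In axons the values were 80.7, 81.8, 10.8 and 115 CPM in +/+ and 176, 87.1, 8.22 and 23.8 CPM in -/-. Every axonal library lay below every somatodendritic one, replicate 3 of both genotypes was lowest, and -/- replicate 1 was highest among the axonal libraries.

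The other vesicular glutamate transporters were scarce. Slc17a8 (chr10:89409882-89457111, minus strand) had 11 to 52 counts in the somatodendritic and 4 to 67 counts in the axonal libraries, which is 0.472 to 2.14 CPM and 0.108 to 1.95 CPM, and the ranges of all 4 groups overlapped. Slc17a7 (chr7:44813345-44825563, plus strand) had 0 to 12 counts, with 0 in 4 of 16 libraries, and was the only one of the 8 genes that failed the filter on low counts. No test was therefore made for Slc17a7, and 7 of the 8 genes were tested in each comparison.

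Gad1 (chr2:70391644-70432358, plus strand), the enzyme that makes most of the GABA in cell bodies, had 306, 350, 324 and 350 CPM in +/+ and 398, 296, 314 and 238 CPM in -/- somatodendritic replicates 1 to 4. In the axonal libraries it had 66.2, 119, 11.7 and 53.1 CPM in +/+ and 229, 79.6, 8.67 and 11.2 CPM in -/-. The highest axonal library, -/- replicate 1, came within 10 CPM of the lowest somatodendritic library without reaching it, while 3 axonal libraries held less than 12 CPM. Gad2 (chr2:22512262-22583889, plus strand), which makes GABA at nerve terminals, had 145, 193, 159 and 164 CPM in +/+ and 179, 142, 136 and 108 CPM in -/- cell bodies, against 34.8, 60.1, 6.39 and 34.5 CPM in +/+ and 90.7, 36.4, 3.24 and 6.79 CPM in -/- axons. As for Gad1, -/- replicate 1 was highest and -/- replicate 3 lowest among the axonal libraries, and 3 of them lay far below the rest.

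Slc32a1 (chr2:158449180-158457667, plus strand) had 46.7, 56.4, 53.1 and 39.9 CPM in +/+ and 58.5, 36.8, 41.7 and 38.2 CPM in -/- somatodendritic replicates 1 to 4. In axons it fell to 2.52, 3.67, 0.714 and 2.54 CPM in +/+ and to 8.02, 3.69, 0.660 and 0.861 CPM in -/-, from 22 to 276 counts. The axonal values lay far below the somatodendritic ones in all libraries, with a gap from 8.02 to 36.8 CPM.

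Slc6a5 (chr7:49556733-49613612, plus strand) had the widest spread of the 6 abundant genes among cell bodies, with 292, 349, 310 and 215 CPM in +/+ and 401, 169, 195 and 143 CPM in -/- replicates 1 to 4. Its axonal libraries held 30.8, 23.0, 4.25 and 22.9 CPM in +/+ and 64.4, 28.0, 1.92 and 2.75 CPM in -/-. Slc6a9 (chr4:117692240-117726502, plus strand) had 120, 117, 93.7 and 80.9 CPM in +/+ and 103, 106, 90.2 and 103 CPM in -/- cell bodies, a narrow range. Its axonal values were 52.3, 74.4, 18.6 and 42.1 CPM in +/+ and 34.6, 75.2, 20.6 and 55.7 CPM in -/-, and did not follow the order of the other genes: -/- replicate 1, the highest axonal library for Slc17a6, Gad1, Gad2, Slc32a1 and Slc6a5, was the third lowest for Slc6a9.

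**Figure D2:**
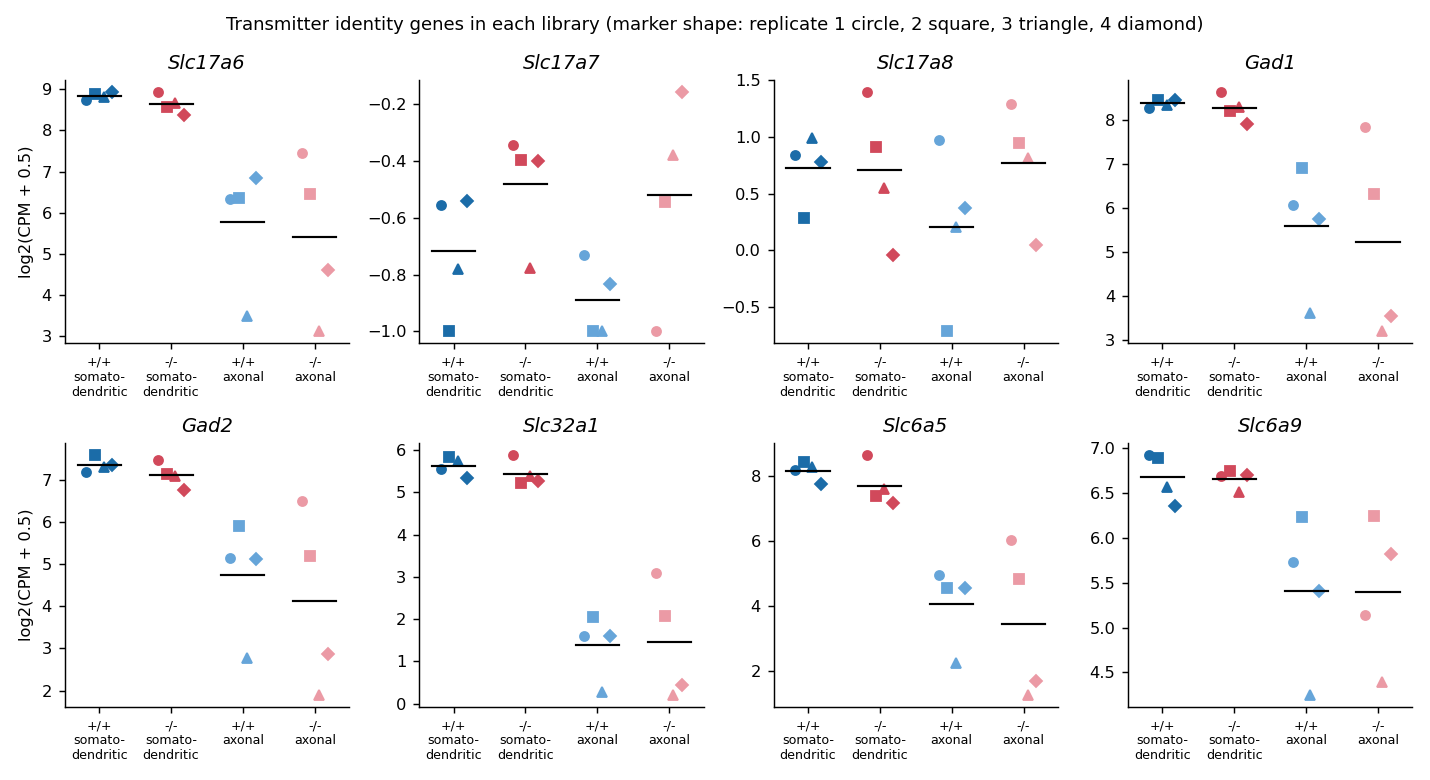
Level of each of the 8 genes, as log2(CPM + 0.5), in the 4 libraries of each group, with bars at group means and marker shapes for replicate numbers. Slc17a6, Gad1, Gad2, Slc32a1, Slc6a5 and Slc6a9 are lower in every axonal library than in every somatodendritic library, and the axonal libraries of replicate 3 (triangles) are low for these 6 genes in both genotypes.

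The comparison of compartments asks which transcripts of these genes were also recovered from axons. In +/+ cultures 6 of the 7 genes tested were lower in axons (adjusted p under 0.05, quasi-likelihood test of edgeR over 19964 genes), where 27.4% of all genes tested were lower and 57.5% changed in either direction. Slc32a1 had the largest decrease, with a log2 fold change of -4.37 (SE 0.68, adjusted p = 0.000149), followed by Slc6a5 with -3.85 (SE 0.91, adjusted p = 0.00255). Slc17a6 changed by -2.67 (SE 0.75, adjusted p = 0.00702), Gad1 by -2.41 (SE 0.83, adjusted p = 0.0218) and Gad2 by -2.28 (SE 0.79, adjusted p = 0.0221). The decrease of Slc6a9 was smaller at -1.14 (SE 0.38, adjusted p = 0.0193), and Slc17a8 had a value of -0.65 (SE 0.61, adjusted p = 0.377). For the 6 genes called, the 4 axonal and 4 somatodendritic libraries did not overlap, as was the case for 27.6% of all genes in the same direction. The median log2 fold change of the 7 genes was -2.41, against 0.07 over all genes tested, which rises by 0.15 when library totals replace the TMM factors. Without +/+ axonal replicate 3, the calls of Gad1, Gad2 and Slc6a9 were lost and only those of Slc32a1, Slc6a5 and Slc17a6 were kept. The log2 fold changes were then -2.02 for Gad1 (edgeR, adjusted p = 0.0560), -1.89 for Gad2 (0.0559) and -0.83 for Slc6a9 (0.0560). The call of Gad1 was also lost without axonal replicate 4, and that of Slc6a9 without axonal replicate 4 or somatodendritic replicate 1 or 2 of +/+.

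The axonal and somatodendritic libraries of -/- cultures showed lower levels in axons for 5 of the 7 genes tested, against 26.8% of all genes that were lower and 54.2% called in either direction. Slc32a1 changed by -3.72 (SE 0.66, adjusted p = 0.000417), Slc6a5 by -3.22 (SE 0.89, adjusted p = 0.00705), Slc17a6 by -2.44 (SE 0.74, adjusted p = 0.0119), Gad2 by -2.04 (SE 0.78, adjusted p = 0.0375) and Slc6a9 by -1.11 (SE 0.38, adjusted p = 0.0228). Gad1 had a log2 fold change of -1.92 (SE 0.81) that missed the threshold at an adjusted p of 0.0573. The replicate numbers paired the -/- libraries of both compartments, and with replicate number as a block Gad1 was called at -2.66 (adjusted p = 0.0137), so that 6 genes were called. DESeq2 (adjusted p = 0.0178) and limma (adjusted p = 0.00127) also called Gad1, and with it 6 genes. Slc17a8 had a value of 0.06 (SE 0.61, adjusted p = 0.944). Again the 6 genes other than Slc17a8 did not overlap between compartments, against 27.3% of all genes in this direction. Leaving out -/- somatodendritic replicate 1 or 2 or -/- axonal replicate 3 left 3 genes called (Slc32a1, Slc6a5 and Slc17a6). The call of Gad2 was lost in 11 of 27 alternatives, among them the fit of the -/- libraries alone and the fits without -/- somatodendritic replicate 3, -/- axonal replicate 2 or 4, or any 1 of the +/+ somatodendritic libraries. Slc6a9 lost its call also without -/- axonal replicate 1 and with library totals in place of TMM factors, and Gad1 was called without -/- axonal replicate 1 (-3.24) or +/+ axonal replicate 3 (-1.88).

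**Figure D3:**
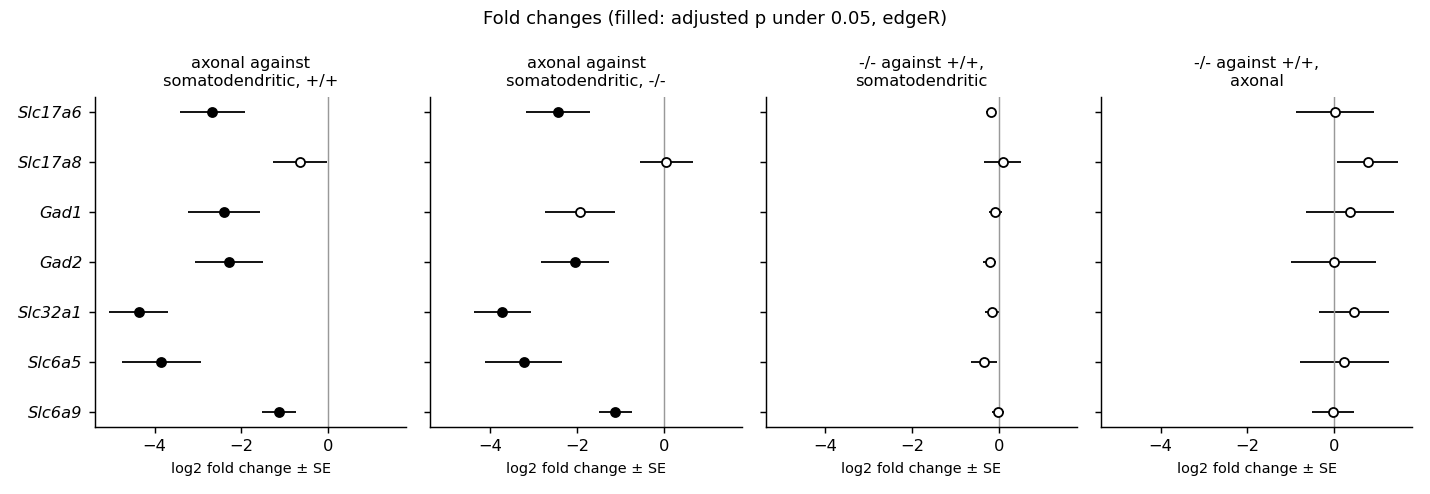
Log2 fold changes with standard errors of the 7 genes tested, in the 4 comparisons named above the panels, with filled points for an adjusted p under 0.05. Slc32a1 is at -4.37 and -3.72 between compartments, whereas all points of the genotype comparisons are open, with longer error bars in axons than in cell bodies.

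To ask whether the genes kept their proportions between compartments, ratios within each library were compared over the 8 axonal and 8 somatodendritic libraries, with 4 ratios in 3 comparisons and p-values adjusted over these 12 tests. Slc32a1 over Slc17a6 was lower in axons by 1.31 on the log2 scale (mean -4.39, SD 0.59, against -3.08, SD 0.20, n = 8 each, two-sided exact permutation p = 0.000311, adjusted p = 0.00373). In linear terms, Slc32a1 stood at 0.0897 to 0.133 of Slc17a6 per exon length in cell bodies and at 0.0244 to 0.0906 in axons, so that the ranges just met. Permuted within replicate pairs, this ratio reached the smallest p that 8 pairs allow (exact p = 0.00781), which is 0.0938 after adjustment. The other 3 ratios were not called between compartments: the log2 difference was -0.83 for Slc32a1 over Slc18a3 (adjusted exact permutation p = 0.514), 0.47 for Slc17a6 over Slc18a3 (0.935) and 0.21 for Slc6a5 over Slc32a1 (0.676). Axonal ratios to Slc18a3 spread widely, and +/+ axonal replicate 4, with 1 count of Slc18a3, stood far above the rest. Without that library, Slc32a1 over Slc18a3 was lower in axons by 1.39 on the log2 scale (adjusted exact permutation p = 0.00186), and the difference of Slc17a6 over Slc18a3 turned to -0.22 (adjusted exact permutation p = 0.884).

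A further 3 ratios were chosen after the values had been seen and are given as a description, with no test. Slc32a1 over Gad1, both genes of GABAergic neurons, had a mean log2 ratio of -3.89 (SD 0.51, n = 8) in axons and -2.35 (SD 0.20, n = 8) in cell bodies. The linear ratios of 0.0424 to 0.107 and 0.156 to 0.225 did not overlap. Gad2 over Gad1 stood at 0.279 to 0.355 in cell bodies and 0.242 to 0.419 in axons, so that the axonal range held the somatodendritic one. For the glycine transporters, Slc6a9 over Slc6a5 was 0.539 to 1.52 in cell bodies and 1.13 to 42.4 in axons. The ranges overlapped at their ends, and the axonal libraries spread widely. Between genotypes, the 4 ratios tested had exact permutation p-values of 0.171 or more in both compartments. With 4 against 4 libraries the smallest p is 0.0286, which on its own could not pass the adjustment over 12 tests, so that a difference between genotypes could hardly be called.

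**Figure D4:**
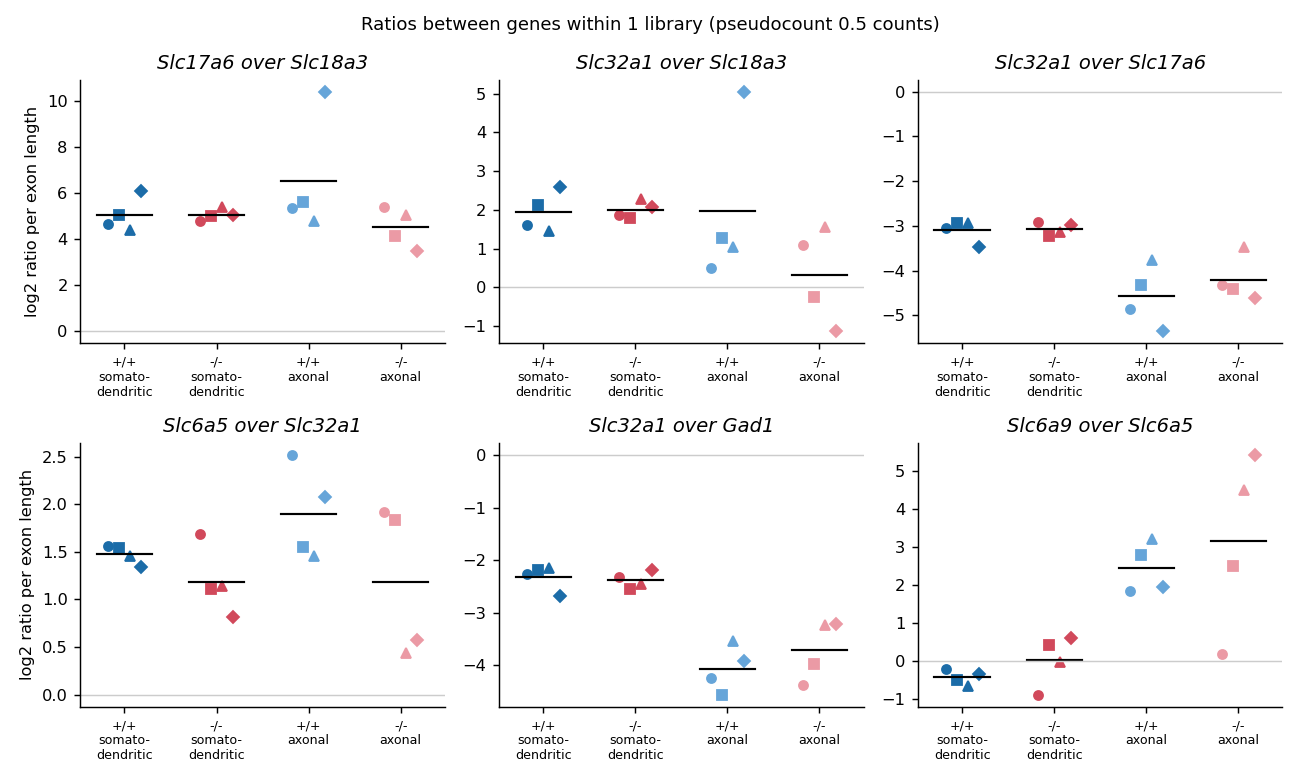
Log2 ratio per exon length between pairs of genes within each library, by group, with bars at group means and marker shapes for replicate numbers. Group means of Slc32a1 over Slc17a6 and over Gad1 lie lower in axons and those of Slc6a9 over Slc6a5 higher, and the ratios to Slc18a3 include 1 axonal library, +/+ replicate 4, far above the others.

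The axonal libraries differed among themselves far more than the somatodendritic ones. With 0.5 CPM added, the highest of the 8 axonal libraries exceeded the lowest 26.8 times for Slc6a5, 25.0 times for Gad1, 24.4 times for Gad2, 20.2 times for Slc17a6 and 7.34 times for Slc32a1, but 3.97 times for Slc6a9. The median over 15967 genes with a mean of at least 1 CPM in cell bodies was 2.37 times, and 99.1% of these genes had a smaller spread than Slc6a5. Among the somatodendritic libraries the same ratio lay between 1.47 for Slc17a6 and 2.80 for Slc6a5, against a median of 1.58 for all genes. The 2 axonal libraries of replicate 3 also deviated from their group means together over all genes (r = 0.763 over 19964 genes, which are not independent replicates). Without both, 6 of the 7 genes tested were still called lower in +/+ and 5 in -/- axons than in cell bodies. Of all 20129 genes tested then, 5323 were lower in +/+ and 5050 in -/- axons.

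Slc17a6, Gad1, Gad2, Slc32a1 and Slc6a5 varied together from library to library, which is given as a description without a test. Over the 8 axonal libraries Pearson's r of log2(CPM + 0.5), taken after subtracting the mean of each genotype, lay between 0.935 and 0.997 for the 10 pairs of these 5 genes, and over the 8 somatodendritic libraries between 0.606 and 0.991. Slc6a9 and the scarce Slc17a8 followed them less closely in axons. For Slc6a9, r with each of the 5 lay between 0.512 and 0.649 in axons and between -0.257 and 0.319 in cell bodies, and for Slc17a8 between 0.233 and 0.445 in axons and between 0.405 and 0.712 in cell bodies. These points share library depth and composition. Spinal interneuron markers differed between the axonal libraries too, and their part in the spread was not tested: the summed CPM of 14 transcription factors of inhibitory interneurons was 174 in -/- replicate 1 and 17.1 and 23.9 in replicate 3 of -/- and +/+, and that of 14 factors of excitatory interneurons was highest in +/+ replicate 4 with 119 and lowest in +/+ replicate 3.

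**Figure D5:**
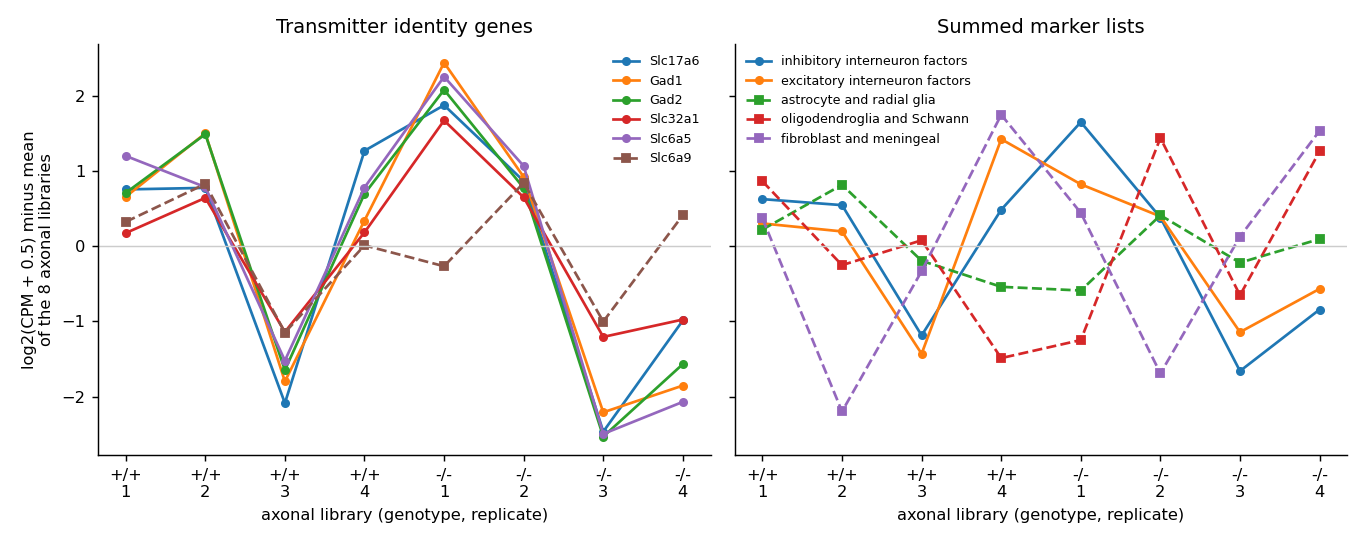
Left, log2(CPM + 0.5) of 6 genes in the 8 axonal libraries, each minus its mean over these libraries. Right, the same for summed CPM of marker lists. The 5 neuronal genes and both interneuron lists are low in replicate 3 of both genotypes and in -/- replicate 4. Slc6a9 is also low in replicate 3 of both genotypes but not in -/- replicate 4, and the glial and fibroblast lists follow other orders.

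Among all genes with at least 1 CPM, those most like each transmitter gene over the 8 somatodendritic libraries were found among 15968 candidates by Pearson's r of log2(CPM + 0.5) after subtracting the mean of each genotype. Gad1 and Slc17a6, which mark neurons of opposite sign, were among each other's 3 closest genes (r = 0.991), beside Aftph (0.992 with Gad1 and 0.988 with Slc17a6), Sgip1 for Gad1 (0.989) and Pcsk2 for Slc17a6 (0.977). Gad2 was closest to Scamp5 (0.990), Slc32a1 to Dcaf7 (0.984), Slc6a5 to Clcn6 (0.997), Slc6a9 to Foxo6 (0.990) and Slc17a8 to Stx17 (0.981). With Spearman's rho in place of r, at most 1 of the 3 closest genes of any member stayed in its list, so single names carry little weight at n = 8.

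The promoters of Gad1 and Slc17a6 are shown because this pair was so alike although 1 gene belongs to inhibitory and the other to excitatory neurons. Likeness over libraries that hold many cells does not say that the genes share regulation, which was not tested. Each line gives the 250 bases before the first listed start in the RefSeq annotation of GRCm38.p6 (an older build than that of the counts), Gad1 at chr2:70561879-70562128 and Slc17a6 at chr7:51621580-51621829, both on the plus strand and written 5′ to 3′. Capitals mark the letters CANNTG, the E-box bound by basic helix-loop-helix factors, which reads the same on both strands.
Gad1: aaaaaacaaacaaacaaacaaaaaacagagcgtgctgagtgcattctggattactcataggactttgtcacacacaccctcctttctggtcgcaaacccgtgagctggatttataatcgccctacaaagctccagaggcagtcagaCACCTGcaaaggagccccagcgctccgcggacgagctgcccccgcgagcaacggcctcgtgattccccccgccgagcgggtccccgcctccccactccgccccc
Slc17a6: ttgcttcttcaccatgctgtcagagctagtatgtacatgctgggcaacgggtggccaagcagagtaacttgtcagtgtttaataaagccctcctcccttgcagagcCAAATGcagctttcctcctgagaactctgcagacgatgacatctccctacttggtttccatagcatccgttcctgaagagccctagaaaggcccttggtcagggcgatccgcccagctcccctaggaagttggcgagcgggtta
Each window held 1 match, with different central letters, and 66.2% of all 32851 promoter windows of this length held at least 1, so the match is a description of the letters and sets neither gene apart.

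The effect of losing hnRNP R was then compared within each compartment, with the 8 libraries of that compartment fitted alone. In the somatodendritic compartment none of the 7 genes was called between genotypes, either after adjustment (edgeR, where 0.00557% of 17961 genes were called, that is Hnrnpr alone at -7.87, SE 0.23) or at an unadjusted p under 0.05 (reached by 2.62% of genes). Without -/- replicate 1, 4 of the 7 genes had an unadjusted p under 0.05, as did 12.5% of all genes tested. None was called after adjustment. The log2 fold changes were then -0.78 for Slc6a5 (adjusted p = 0.134), -0.36 for Gad2 (adjusted p = 0.287), -0.33 for Slc32a1 (adjusted p = 0.341) and -0.30 for Slc17a6 (adjusted p = 0.254). With all 8 libraries the log2 fold changes of -/- against +/+ were -0.35 (SE 0.30) for Slc6a5, -0.22 (SE 0.16) for Gad2, -0.18 (SE 0.12) for Slc17a6, -0.15 (SE 0.17) for Slc32a1, -0.08 (SE 0.15) for Gad1, -0.03 (SE 0.14) for Slc6a9 and 0.08 (SE 0.42) for Slc17a8. The groups overlapped for all 8 genes, where 0.774% of all genes were lower without overlap in -/- and 0.696% higher. Glial markers differed between these libraries: in -/- replicate 1, with the highest Gad1, Slc32a1 and Slc6a5 of all 8, the summed CPM of 9 astrocyte and radial glia markers was 714, the lowest of all. In -/- replicate 4, with the lowest Slc17a6, Gad1, Gad2 and Slc6a5, it was 1906, the highest. The other 6 libraries did not all follow this order. In +/+ replicate 4 the sum was the second lowest, 830. That library held 215 CPM of Slc6a5 and 39.9 CPM of Slc32a1, both the lowest of the +/+ group. It also held the highest Slc17a6 of all 8, 491 CPM, and 350 CPM of Gad1. The part of these cells in the values was not tested.

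In axons, none of the 7 genes was called between genotypes after adjustment (0.00528% of 18957 genes were called, again Hnrnpr alone at -7.93, SE 0.56) or at an unadjusted p under 0.05 (0.723% of genes). The log2 fold changes ran from -0.02 (SE 0.48) for Slc6a9 to 0.77 (SE 0.71) for Slc17a8. They were 0.01 (SE 0.90) for Slc17a6, 0.36 (SE 1.02) for Gad1, -0.02 (SE 0.97) for Gad2, 0.46 (SE 0.81) for Slc32a1 and 0.23 (SE 1.03) for Slc6a5. The directions of these 5 genes were not stable, whereas Slc17a8 stayed above 0 in 19 alternatives (0.26 to 1.33). Without -/- axonal replicate 1 the values were -0.88 for Slc17a6, -0.95 for Gad1, -1.16 for Gad2, -0.47 for Slc32a1 and -0.93 for Slc6a5. With replicate number as a block Slc17a6 (-0.34), Gad1 (-0.40), Gad2 (-0.70) and Slc6a5 (-0.64) were also below 0, and Slc32a1 stood at 0.0056. The groups overlapped for all 8 genes, against 0.301% of all genes lower and 0.29% higher without overlap. With standard errors of 0.81 to 1.03 on the log2 scale for Slc17a6, Gad1, Gad2, Slc32a1 and Slc6a5, a change of 2-fold in these genes was not detectable in axons. The difference between the genotype effects of both compartments was called for 0 of the 7 genes and 0 of all 19964 genes (edgeR), with 0 of the 7 and 1.33% of all genes at an unadjusted p under 0.05. DESeq2 and limma also called none of the 7 genes in these 3 comparisons.

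Genes that handle the same transmitters were compared as lists, beside 27.4% of all genes lower and 30.1% higher in +/+ axons, and 26.8% lower and 27.5% higher in -/- axons. Of 15 enzymes and transporters of glutamate and glutamine, 5 were lower and 2 higher in +/+ axons, and 4 lower and 1 higher in -/- axons, shares of lower genes near those of all genes. The neutral amino acid transporter Slc1a4 fell by 1.35 on the log2 scale in +/+ (adjusted p = 0.000149) and by 1.25 in -/- axons (adjusted p = 0.000293). The mitochondrial aminotransferase Got2 fell by 0.61 in +/+ (adjusted p = 0.00368), and the glial glutamate transporter Slc1a3 was higher by 0.78 in +/+ (adjusted p = 0.0180). Of 6 genes for GABA uptake and breakdown, 4 were lower in axons of both genotypes, a median of -1.20 in +/+ and -1.43 in -/-. They include the GABA transaminase Abat, which fell by 1.12 in +/+ (adjusted p = 0.00486), and the astrocytic transporter Slc6a11, which fell by 2.15 (adjusted p = 0.0159).

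Of 10 genes of glycine synthesis, cleavage and uptake, 7 were tested and 4, all enzymes or proteins of synthesis and cleavage, were higher in axons of both genotypes, with none lower, against 30.1% of all genes higher in +/+ and 27.5% in -/-. In +/+ axons the mitochondrial serine hydroxymethyltransferase Shmt2 was higher by 1.42 on the log2 scale (adjusted p = 0.000642), and the glycine cleavage genes Gcsh by 1.29 (adjusted p = 0.000101) and Gldc by 0.82 (adjusted p = 0.0158). Dld, the highest gene of the list and also a part of the glycine cleavage system, had a value of 0.04 (adjusted p = 0.903) in +/+ and -0.32 (adjusted p = 0.280) in -/-. Summed over the list, the level was 270 to 362 CPM in the 8 somatodendritic and 366 to 591 CPM in the 8 axonal libraries.

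Lists of cell type markers were counted in the same way, beside 27.4% of all genes lower and 30.1% higher in +/+ and 26.8% lower and 27.5% higher in -/- axons. Of 13 inhibitory interneuron factors tested, 8 were lower in +/+ and 7 in -/- axons, among them Lhx1 at -3.06 (adjusted p = 0.00303) and Pax8 at -1.95 (adjusted p = 0.0253) in +/+. Of 13 excitatory interneuron factors 7 were lower in +/+ and 8 in -/-, with 1 higher in -/-. In the somatodendritic libraries the inhibitory factors summed to 281 to 361 CPM and the excitatory ones to 121 to 238 CPM. All 9 cholinergic and motoneuron markers together summed to 21.7 to 39.2 CPM in cell bodies and 3.39 to 17.7 CPM in axons, and 4 of 7 tested were lower in axons of each genotype. The 9 astrocyte and radial glia markers summed to 714 to 1906 CPM in cell bodies and 1783 to 4718 CPM in axons, with 5 of 9 higher in +/+ and 3 of 9 in -/- axons, the latter a share near that of all genes. Among them was Fabp7 at 2.10 in +/+ (adjusted p = 7.33e-05). Summed markers overlapped between compartments for oligodendroglia and Schwann cells (229 to 1280 and 250 to 1901 CPM), fibroblasts and meninges (60.6 to 1237 and 132 to 2033 CPM), microglia (10.0 to 116 and 14.1 to 344 CPM), sensory neurons (22.0 to 30.8 and 17.1 to 34.1 CPM), monoaminergic neurons (9.89 to 13.6 and 7.40 to 26.9 CPM) and endothelium (3.19 to 28.1 and 22.0 to 68.5 CPM). None of the genes in the 13 lists, which leave out the 8 transmitter genes, was called between genotypes in either compartment (edgeR). Apart from Chat, Slc18a3, Slc5a7, Isl1 and Mnx1, 6 of 96 tested in cell bodies had an unadjusted p under 0.05 (2.62% of all genes). In axons it was 0 of 90 (0.723% of all genes). Log2 fold changes of -/- against +/+ cell bodies were above 0 for all 9 astrocyte markers tested (median 0.45). So were those of oligodendroglia (6, 0.76), fibroblasts (7, 1.18), microglia (5, 0.90) and endothelium (4, 0.86). Of all genes 48.2% were below 0, as were 6 of 7 transmitter genes. In axons 6 of 9 astrocyte and 5 of 7 fibroblast markers were below 0. The part of these cell types in the levels of the transmitter genes was not tested.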

How the data were processed

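The deposited values are expected counts per gene, that is fractional counts made by the authors: reads were trimmed with Cutadapt, aligned with STAR 2.7.2b to GRCm39 with RefSeq genes, and counted over exons with featureCounts 1.6.4 in the reverse-stranded setting, with multi-mapping and overlapping reads split. The SMART-Seq v4 kit does not mark strand. Axonal cDNA was amplified with more PCR cycles than somatodendritic cDNA. The counts were rounded to whole numbers. In R 4.3.3, edgeR 4.0.16 was used with filterByExpr, TMM scaling and quasi-likelihood tests, adjusted by Benjamini-Hochberg over all genes tested. Compartment contrasts and the interaction came from all 16 libraries, genotype contrasts from the 8 of a compartment. Likeness used log2(CPM + 0.5), and ratios 0.5 added counts and exact permutation tests. limma 3.58.1 and DESeq2 1.42.0 served as alternatives, and the code was tested on simulated data. Groups and replicate numbers came from the titles, and no 2 libraries were identical. The study calls the libraries of a group biological replicates, but the labels do not say that they are separate cultures, so p-values measure the spread between these libraries.

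Deviations from group means over all genes correlated between same-numbered -/- axonal and somatodendritic libraries with r from 0.178 to 0.564, above the limit of 0.1 for all 4 pairs, and with 0.0943 to 0.279 in +/+, where 3 of 4 passed. Only the -/- compartments therefore passed the limit for every pair. In both genotypes, each of the 4 axonal libraries correlated best with the somatodendritic library of its own number. The reported fits held no block in any comparison. The alternative with a block fitted replicate number over all libraries of the fit, and not within -/- alone. The 8 genes, the marker lists and the tests were chosen with earlier results of these data known. Genes named from a list are among its 4 highest in mean CPM over the somatodendritic libraries.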

Additional observations from a re-analysis of the deposited data

Results flagged for a closer look

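Slc17a7 in -/- somatodendritic replicate 3 was 0.0837 CPM, from 2 counts, while the other 3 libraries of the group held 0.257 to 0.288 CPM, from 6 or 7 counts. Its gap to the nearest library took 0.849 of the range of the group. It was the only 1 of 32 groups of 4 libraries so far from the others, where chance gives about 1 in 20.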

How the results depend on the processing

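Of 396 recomputed counts and ratios, 386 kept their side of the threshold or, for counts, stayed within 1.5 times the reported value. Among them, 9 values of ratios that were not called changed sign: Slc17a6 over Slc18a3 ran from -0.22 to 0.76 between compartments with libraries left out in turn, and the others were somatodendritic ratios between genotypes. With libraries left out in turn, 3 to 6 transmitter genes were called between compartments in +/+ and 3 to 6 in -/-. Slc32a1, Slc6a5 and Slc17a6 were called in all 27 alternatives in both genotypes, Gad1 in 25 of 27 in +/+ and 6 of 27 in -/-, Gad2 in 26 and 16, and Slc6a9 in 23 and 22. Adjusted p-values of Gad1 ran from 0.00249 to 0.0560 in +/+ and from 0.00127 to 0.121 in -/-. Genes called between genotypes in axons numbered 2 with all 16 libraries in 1 fit, 0 to 1 with libraries left out in turn (0 without -/- axonal replicate 2), and 0 without axonal replicate 3 of both genotypes, an alternative chosen after seeing the data. DESeq2 called 1 gene for the difference of genotype effects. Slc32a1 over Slc18a3 differed between compartments by -1.39 to -0.51 with libraries left out in turn. With the replicate block, Slc32a1 over Slc17a6 remained at -1.31 but missed the threshold (adjusted p = 0.0938), although its exact p was the smallest that 8 pairs allow, which on its own cannot pass the adjustment over 12 tests, Gad1 was called in -/- axons at -2.66, and no other call of the transmitter genes changed. In comparisons where not every same-numbered pair passed the limit, the block gave 6 transmitter genes called between compartments in +/+ and 0 between genotypes. Counts were low for Slc17a7, Chat and Mnx1, and for Slc32a1 and Slc18a3 in axons, and the effect of depth was not tested. The causes of these changes were not tested.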
